A study of Mus musculus with 22 samples.

Results

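H3K9me3, the repressive histone mark of heterochromatin, was compared between the C2 and OSKM lines of mouse induced pluripotent stem (iPS) cells, measured by chromatin immunoprecipitation with sequencing (ChIP-seq) in 2 libraries per line. The members are the regions of the H3K9me3 table for these lines that lie on chromosomes 1 to 19: 60587 of the 68845 regions of the table, and of the 204411 regions deposited over both histone marks. Of the members, 57337 lie on chromosomes other than 8 and 3250 lie on chromosome 8, which was kept apart. Regions are the union of the peaks of the libraries, and the values are normalized reads per region.

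Both lines came from C57BL/6 mouse embryonic fibroblasts. C2 cells had been transduced with ZFATF1, ZFATF2 and ZFATF3, which are artificial zinc-finger factors, together with Sox2, Klf4 and c-Myc, and no Oct4. OSKM cells had been transduced with Oct4, Sox2, Klf4 and c-Myc, the classical reprogramming mix. Cells of both lines carried an Oct4-MerCreMer recombinase and a Tomato/GFP reporter and received 100 nM 4-hydroxytamoxifen, so neither line is an untouched pluripotent cell. Each line is labelled as such and no other line of its kind was compared, so a difference between the lines cannot be told apart from a difference between the factor sets. The labels do not say whether the replicates are separate cultures, so the tests reflect only the scatter between these libraries, which may be technical.

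H3K9me3 is written by methyltransferases such as SETDB1 and the SUV39H enzymes, is bound by HP1 proteins, and keeps satellite repeats, transposons and some genes silent. At imprinted genes, where a single parental copy is active, the silent copy of the control region carries DNA methylation together with H3K9me3, held there by the zinc-finger protein ZFP57 and the co-repressor KAP1 (TRIM28). In embryonic stem cells the mark also coats the clusters of zinc-finger genes. During reprogramming of fibroblasts, broad H3K9me3 domains are known as an obstacle, and imprinted regions are known to be gained or lost.

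The recovered reads in regions numbered 4455379 and 3412599 in the C2 libraries and 7118324 and 8548902 in the OSKM libraries. MACS2 had called 69446 and 64028 peaks in the C2 libraries and 90392 and 93735 in the OSKM libraries. Across regions the log2 values correlated at 0.849 between the C2 libraries and 0.930 between the OSKM libraries, against 0.824 to 0.829 between the lines. A share of 17.2% to 21.5% of regions per library stood at the lowest value of its column. It stands for 1 read or fewer after any subtraction of input reads, which the sources used here do not state. Values were checked against H3K27ac, the mark of active promoters and enhancers. All 8 pluripotency markers had an H3K27ac region in both lines, with a summed level of 14710 and 10794 normalized reads in C2 and 28311 and 27696 in OSKM. Of the fibroblast markers, Col1a2 had no region, Postn stood at the lowest value in every library, and the other members summed, with Postn, to 134 and 93.7 in C2 and 70.1 and 120 in OSKM. The 6 endoderm markers summed to 2199 and 1062 in C2 and 369 and 677 in OSKM, and the 4 trophoblast markers to 588 and 544 in C2 and 376 and 422 in OSKM. The sums for 3 neuroectoderm markers were 334 and 172 in C2 and 345 and 453 in OSKM, those for 3 mesoderm markers 124 and 118 in C2 and 176 and 235 in OSKM, and those for the 2 of 3 endothelial markers with a region 778 and 789 in C2 and 674 and 728 in OSKM. The part of these other cell types in the results was not tested. In bulk samples, fewer cells with a mark and less of the mark per cell cannot be told apart.

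The sequences shown first are promoter windows at which the lines differed or did not differ, since imprinted promoters are among the largest increases near named genes. Each runs from 250 bases before to 50 bases after a gene start, 5′ to 3′ on the strand of the gene, from RefSeq on GRCm38.p6. Capitals mark CpG, the site of DNA methylation, which was not measured. The windows of Airn, Zrsr1 and Grb10 lie wholly or mostly in regions that were higher in C2.
Airn (chr17:12741061-12741360, plus strand): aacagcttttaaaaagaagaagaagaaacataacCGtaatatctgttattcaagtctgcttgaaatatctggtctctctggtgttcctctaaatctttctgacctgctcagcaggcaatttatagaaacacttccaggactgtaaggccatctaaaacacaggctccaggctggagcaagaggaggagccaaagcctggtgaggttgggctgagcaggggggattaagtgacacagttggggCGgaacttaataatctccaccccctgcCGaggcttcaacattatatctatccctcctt
Zrsr1 (chr11:22971755-22972054, plus strand): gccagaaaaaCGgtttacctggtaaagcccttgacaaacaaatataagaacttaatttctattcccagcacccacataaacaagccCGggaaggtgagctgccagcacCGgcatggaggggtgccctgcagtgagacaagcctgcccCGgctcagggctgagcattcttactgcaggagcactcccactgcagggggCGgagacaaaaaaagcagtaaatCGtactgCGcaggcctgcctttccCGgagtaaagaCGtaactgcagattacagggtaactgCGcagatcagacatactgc
Grb10 (chr11:12027922-12028221, minus strand): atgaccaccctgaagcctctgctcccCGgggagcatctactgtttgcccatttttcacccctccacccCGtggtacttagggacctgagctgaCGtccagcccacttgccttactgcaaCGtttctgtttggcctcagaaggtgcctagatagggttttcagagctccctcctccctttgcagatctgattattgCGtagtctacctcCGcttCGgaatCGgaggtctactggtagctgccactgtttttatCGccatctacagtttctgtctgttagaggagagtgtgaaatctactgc
The windows of Plagl1 and Peg3 lie in regions that held reads of the mark in both lines and did not pass the test.
Plagl1 (chr10:13090582-13090881, plus strand): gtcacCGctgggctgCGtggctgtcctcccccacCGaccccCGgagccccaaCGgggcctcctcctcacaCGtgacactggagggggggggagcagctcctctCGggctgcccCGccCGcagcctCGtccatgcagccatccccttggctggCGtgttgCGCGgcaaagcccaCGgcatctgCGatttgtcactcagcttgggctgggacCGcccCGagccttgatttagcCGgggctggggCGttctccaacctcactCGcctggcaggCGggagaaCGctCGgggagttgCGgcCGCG
Peg3 (chr7:6730370-6730669, minus strand): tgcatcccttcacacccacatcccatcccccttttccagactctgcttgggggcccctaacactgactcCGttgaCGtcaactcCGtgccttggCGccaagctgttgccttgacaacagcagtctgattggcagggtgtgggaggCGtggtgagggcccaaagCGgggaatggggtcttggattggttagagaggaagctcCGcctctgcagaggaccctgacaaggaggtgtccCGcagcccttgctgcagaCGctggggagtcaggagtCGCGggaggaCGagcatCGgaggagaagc
The Airn window holds 3 CpG, the Zrsr1 window 10, the Grb10 window 9, the Peg3 window 13 and the Plagl1 window 26, beside a median of 7 over all 32851 promoter windows of the table. The hexamer TGCCGC, the core of the ZFP57 motif, was searched on both strands and occurs in 11.6% of all windows. It occurs 1 time in the Plagl1 window and is not in the windows of Airn, Zrsr1, Grb10 or Peg3. The windows cover only a stretch of each region, and nothing about ZFP57 follows from them.

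On chromosomes 1 to 19 other than 8, 43102 regions had a mean of at least 10 normalized reads and were tested with limma on log2 of the normalized reads plus 1. H3K9me3 rose in C2 in 204 regions (0.473% of those tested) and fell in 685 regions (1.59%), at an adjusted p under 0.05. The adjustment ran over all chromosomes, chromosome 8 included. With chromosomes 8, X and Y left out of the fit, the counts were 123 higher and 421 lower. Over all chromosomes, 1711 of 48472 tested regions (3.53%) were called in either direction. The median log2 fold change of the tested regions was -0.12, with 59.9% below 0. Both C2 libraries lay above both OSKM libraries in 16.7% of tested regions and below both in 29.8%. The split of the calls depended on the scaling: 22.9% of called regions were higher in C2 here, against 65.6% after quantile normalization, 52.7% with edgeR and 53.7% with DESeq2. The median of all tested regions moved to 0.05 after quantile normalization and to 0.04 with edgeR. The counts also depended on single libraries. Without C2 replicate 1 they were 1374 higher and 5232 lower, without C2 replicate 2 they were 987 and 4051, without OSKM replicate 1 they were 146 and 88, and without OSKM replicate 2 they were 128 and 73. Of the 204 higher regions, 132 were called by edgeR, DESeq2 and the quantile-normalized fit alike, as were 79 of the 685 lower regions.

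**Figure D1:**
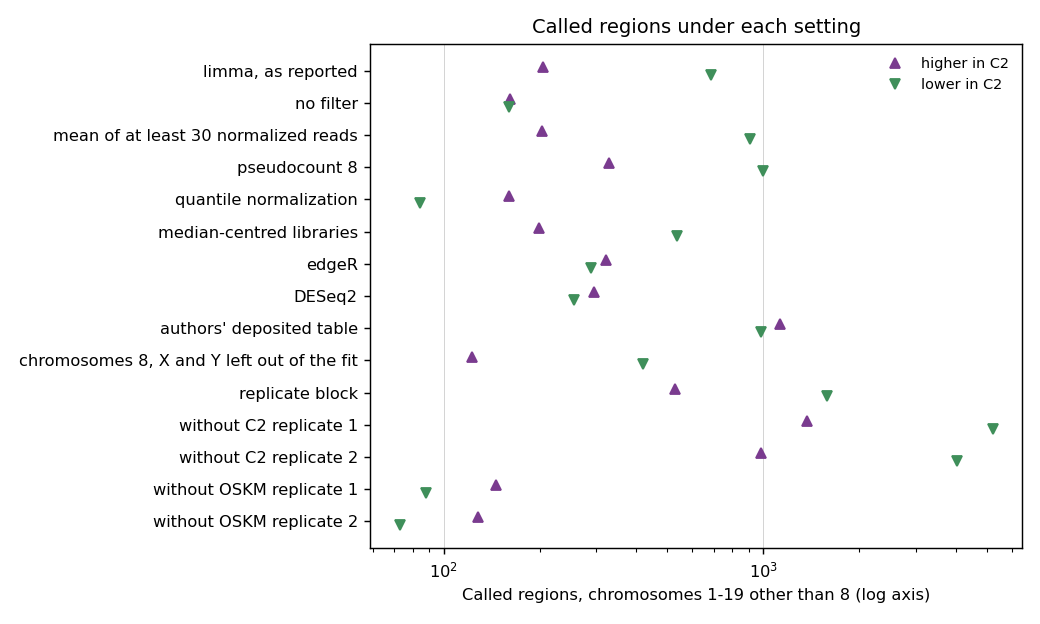
Number of regions called higher (triangles up) and lower (triangles down) in C2 than in OSKM on chromosomes 1 to 19 other than 8, on a log axis, under each setting of the test. The higher calls range from 123 to 1374 and the lower calls from 73 to 5232, and which is larger depends on the setting.

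Regions called in opposite directions differed in width, level and size of change, which comes in part from the test itself. The median SE was 0.477 in regions of 20 to 50 normalized reads and 0.168 in those of 300 to 1000. Strong regions can thus pass at smaller changes. The median level was 52.1 normalized reads in the higher regions, 277 in the lower regions and 50.4 over all tested regions. Those higher in C2 had a median width of 1062 bp and a median log2 fold change of 2.04, and those lower in C2 a median width of 2901 bp and a median log2 fold change of -0.91. All tested regions had a median width of 1170 bp. Per length, the mean level was 56.1 normalized reads per kb in the higher regions, 90.2 in the lower regions and 52.8 over all tested regions (medians). In 12 of the 204 higher regions both OSKM libraries stood at their lowest value, and in 26 of the 685 lower regions both C2 libraries did. C3, a line made with another set of artificial factors, also stood at its lowest value in 3 of those 12 and in 17 of those 26 regions. The median log2 fold change was -0.03 in regions under 500 bp and -0.26 in regions of 10000 bp or more. By level, it was -0.02 in regions of 10 to 20 normalized reads and -0.43 in regions of 1000 or more. These medians are a description of all tested regions, and quantile normalization, which equalises such trends, left 84 lower calls.

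**Figure D2:**
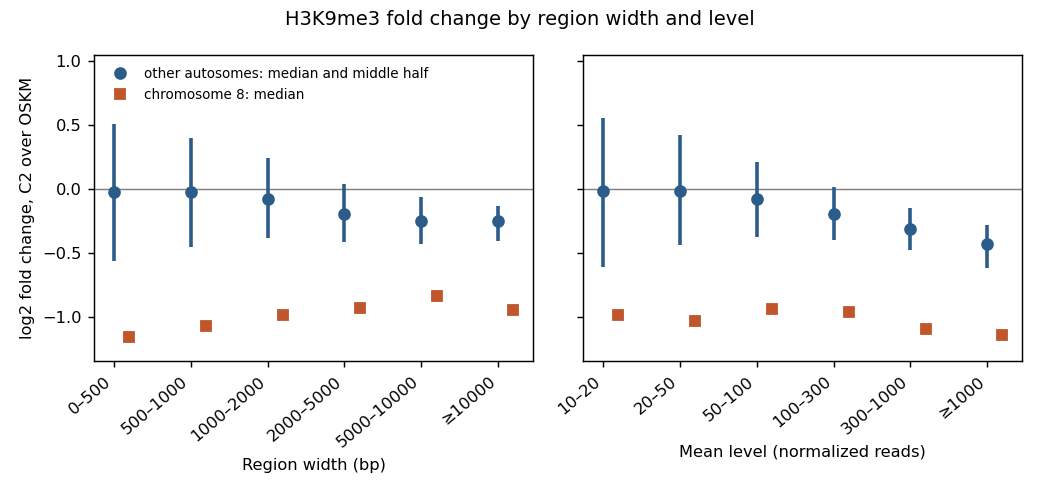
Median log2 fold change of H3K9me3, C2 over OSKM, by region width (left) and by mean level over the 4 libraries (right). Circles with bars give the median and the quartiles of regions on chromosomes 1 to 19 other than 8, and squares the median on chromosome 8. Wide and strong regions have medians of -0.26 and -0.43, narrow and weak ones medians near 0, and chromosome 8 lies near -1 in every class.

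Regions in genes or within 2000 bp of them made up 37.8% of tested regions, 54.9% of the higher and 63.2% of the lower ones. A promoter window was covered by 6 higher and 18 lower regions of the 436 tested regions at promoters. Where no gene lay within 2000 bp, 92 of 26789 regions were higher and 252 were lower.

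Near named genes, the largest increases in C2 were at a zinc-finger block and at imprinted genes. Regions without a named gene within 2000 bp were left out of this ranking. The ranked region with the largest fold change, chr5:143242860-143249227 (GRCm38.p6, as are all positions), lies within 2000 bp of Zfp12 and Zfp316, a pair of zinc-finger genes. It held 869 and 636 normalized reads in the C2 libraries and the lowest value, 0.852 and 0.734, in the OSKM libraries. Taken as reads, these values put C2 at least 294-fold higher against a floor of 3 reads per OSKM library (log2 fold change 8.70, SE 0.41, limma adjusted p = 9.05e-08). All such bounds, here and below, take the lowest value as 1 read. Whether input reads were subtracted is not given, so the bounds may be too large. The C3 libraries, in a table normalized separately, held 858 and 842. The region was called in all 14 other settings, among them those that leave out each library in turn.

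The region at the Airn promoter, chr17:12739501-12741756, lies in the gene body of Igf2r. Airn is the paternally expressed long non-coding RNA that silences Igf2r, the receptor that clears insulin-like growth factor 2, on the same chromosome. It held 264 and 290 normalized reads in C2 and 0.852 and 0.734 in OSKM, so that C2 was at least 108-fold higher (log2 fold change 7.27, SE 0.52, limma adjusted p = 9.61e-06). The groups did not overlap, and no OSKM library rose above its lowest value. C3 held 226 and 192. H3K27ac at the same place was 42.0 and 23.1 in C2 and 26.4 and 23.7 in OSKM, a difference that did not pass the test (limma adjusted p = 0.725).

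Zrsr1, a paternally expressed splicing-factor gene inside Commd1, had 108 and 100 normalized reads in C2 at chr11:22970995-22972195 and 0.852 and 0.734 in OSKM. C2 was at least 40.7-fold higher (log2 fold change 5.87, limma adjusted p = 0.000832), and C3 held 87.3 and 139. The active mark at the promoter went the other way: H3K27ac held 339 and 223 in C2 and 728 and 773 in OSKM (log2 fold change -1.44, limma adjusted p = 0.0156). Impact, a paternally expressed regulator of translation, showed the same pair of changes at chr18:12972724-12974634. H3K9me3 held 214 and 44.6 in C2 and 1.70 and 0.734 in OSKM (log2 fold change 5.52, limma adjusted p = 0.00308). H3K27ac there held 375 and 196 in C2 and 1194 and 967 in OSKM (log2 fold change -1.98, limma adjusted p = 0.0138). The C2 libraries differ widely at Impact, yet both lie above both OSKM libraries. C3 held 162 and 60.4 there. At the Zrsr1 and Impact regions a peak was called in C2 replicate 1 but not in C2 replicate 2.

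At Grb10, which codes for an adaptor that restrains growth-factor signalling, the region at a promoter, chr11:12027958-12028481, held 52.7 and 47.4 normalized reads in C2 and 1.70 and 2.94 in OSKM (log2 fold change 3.97, SE 0.73, limma adjusted p = 0.0113). C3 held 18.6 and 7.11. A neighbouring region with the higher mean, chr11:12026574-12027392, held 119 and 118 in C2 and 45.2 and 38.2 in OSKM (log2 fold change 1.49, limma adjusted p = 0.0149). Nap1l5, a retrotransposed gene in an intron of Herc3, held 733 and 574 in C2 at chr6:58904577-58909739 and 413 and 406 in OSKM (log2 fold change 0.66, limma adjusted p = 0.0456). This call was lost without OSKM replicate 1 (adjusted p = 0.340) and without OSKM replicate 2 (adjusted p = 0.411), and that of the neighbouring Grb10 region was lost without OSKM replicate 2 (adjusted p = 0.116). Airn, Zrsr1, Impact and the Grb10 promoter were called in each fit that left out 1 library.

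Other imprinted promoters carried the mark in both lines. The Plagl1 region, at the gene of a zinc-finger growth regulator, held 550 and 510 normalized reads in C2 and 658 and 549 in OSKM (log2 fold change -0.18, limma adjusted p = 0.598). The region of Nnat, a small membrane protein, held 989 and 924 in C2 and 1286 and 1256 in OSKM (-0.41, adjusted p = 0.121). The Mest region, at the gene of a hydrolase-like protein, held 378 and 268 in C2 and 493 and 430 in OSKM (-0.53, adjusted p = 0.162). At these promoters a peak was called in all 4 libraries. The Peg3 and Usp29 region held 169 and 107 in C2 and 174 and 153 in OSKM (-0.27, adjusted p = 0.616), and the Snrpn and Snurf region 110 and 86.4 in C2 and 152 and 156 in OSKM (-0.65, adjusted p = 0.167). The Kcnq1ot1 promoter region split the C2 libraries, at 257 and 83.6 in C2 and 250 and 201 in OSKM. In C2 replicate 2 no peak was called at the Peg3 or the Kcnq1ot1 region. With 2 libraries per line, a p that misses the threshold does not show that the lines were alike at these promoters.

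**Figure D3:**
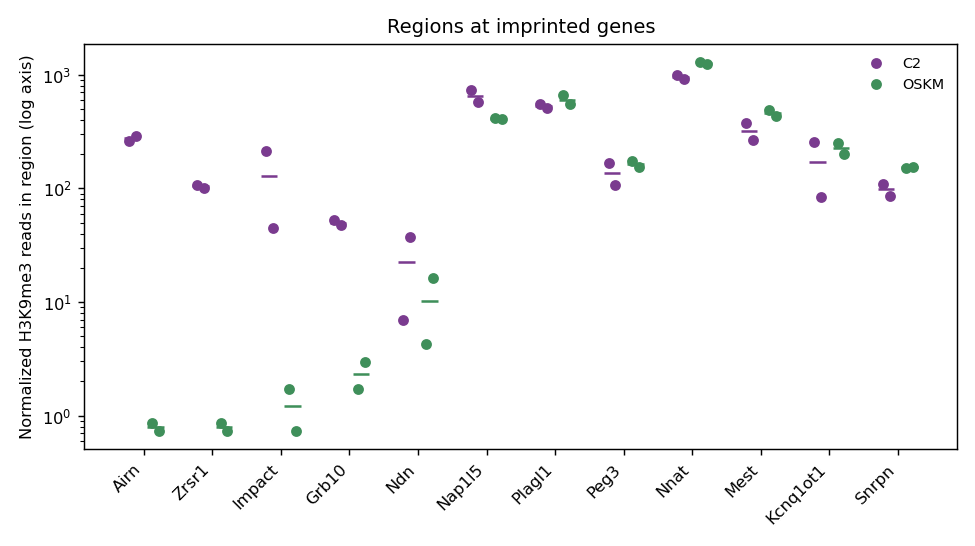
Normalized H3K9me3 reads (log axis) in the tested regions at promoters of imprinted genes, and at Impact, ordered by fold change. Points are the libraries of C2 (left) and OSKM (right) and bars their means. At Airn, Zrsr1, Impact and Grb10 the OSKM libraries lie between 0.734 and 2.94, whereas at Plagl1, Nnat and Mest both lines lie above 200.

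Over the list of 51 imprinted genes, 37 had a tested region, in 29 distinct regions since neighbours share them. Of these, 7 genes were higher in C2 (Airn, Igf2r, Zrsr1, Impact, Grb10, Nap1l5 and Herc3) and 3 were lower (Rtl1, Kcnq1 and Kcnq1ot1), with a median log2 fold change of -0.34. Over all 9316 genes with a tested region on these chromosomes, 0.569% were higher and 4.18% were lower, with a median of -0.24.

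The imprinted decreases lay in a pair of domains. Rtl1, a retrotransposon-derived gene expressed from the paternal copy of the Dlk1-Dio3 domain, lies at chr12:109591475-109595486. Its region held 140 and 134 normalized reads in C2 and 689 and 579 in OSKM (log2 fold change -2.20, SE 0.18, limma adjusted p = 3.42e-05), and C3 held 162 and 84.1. The region holds the hairpins of miR-433, miR-127, miR-434, miR-432, miR-3071 and miR-136, several of which are made from the maternal transcript that runs against Rtl1. A neighbouring region, chr12:109589893-109591129, holds miR-431 and had a log2 fold change of -2.55 (limma adjusted p = 0.00308). Both were called in each fit that left out 1 library. These were 7 of the 8 miRNA hairpins, of 919 in the RefSeq table on chromosomes 1 to 19, that overlapped a called region. The 919 were counted whether or not a tested region covered them. Over all chromosomes, 3.53% of tested regions were called. All 7 hairpins lie in this pair of neighbouring regions, so their number is not a result about miRNA genes. Levels of the miRNAs were not measured. Their mature sequences are shown because the region covers their genes, with the seed (bases 2 to 8) in capitals. No seed is shared among the 15 mature sequences of these 8 hairpins.
mmu-miR-127-3p: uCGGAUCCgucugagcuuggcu
mmu-miR-136-5p: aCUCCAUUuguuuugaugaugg
mmu-miR-431-5p: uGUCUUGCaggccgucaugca
mmu-miR-433-3p: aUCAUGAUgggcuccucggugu
mmu-miR-434-3p: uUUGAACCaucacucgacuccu
The window of 1 Mb with the most lower regions, chr7:143000001-144000000, held 8 of its 21 tested regions as lower. Of these, 7 lie in Kcnq1, a potassium channel gene, and its antisense partner Kcnq1ot1, the non-coding RNA that silences the domain, and 1 lies at Tnfrsf23, which codes for a decoy receptor. The widest, chr7:143222768-143240195, held 1368 and 1242 normalized reads in C2 and 1960 and 2135 in OSKM (log2 fold change -0.65, limma adjusted p = 0.0183). The calls of all 7 were lost without OSKM replicate 1 (adjusted p from 0.142 to 0.461) and without replicate 2 (0.119 to 0.474). The Tnfrsf23 region, chr7:143665982-143667929, held 4.59 and 37.6 in C2 and 175 and 225 in OSKM (log2 fold change -3.76, limma adjusted p = 0.00714) and was called in each fit that left out 1 library, but DESeq2 gave 0.262.

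Smarcad1, which codes for a chromatin remodeller that takes part in H3K9me3 silencing, carried the densest run of increases. In the window chr6:65000001-66000000, 6 of 28 tested regions were higher in C2, and 5 of them lie within 2000 bp of Smarcad1. These 5 were called in each fit that left out 1 library, and the sixth was lost without OSKM replicate 2 (adjusted p = 0.249). The one with the most reads in C2, chr6:65070146-65072222, held 226 and 227 normalized reads in C2 and 27.3 and 15.4 in OSKM (log2 fold change 3.40, SE 0.33, limma adjusted p = 0.000163). Another, chr6:65072940-65073845, held 87.1 and 113 in C2 and the lowest value in OSKM, so that C2 was at least 39.1-fold higher. C3 stood at its lowest value, 0.687 and 1.18, in both. Both were also higher in C2 than in C3, with log2 fold changes of 6.70 (limma adjusted p = 5.82e-05) and 5.52 (adjusted p = 0.00900), as was chr6:65067438-65068466 at the same gene (5.14, adjusted p = 0.00675). Over the table, all chromosomes included, 21 of 47218 tested regions (0.0445%) were higher and 37 (0.0784%) were lower in C2 than in C3. Of the members outside chromosome 8 that were tested in both comparisons, 21 of 41694 were higher and 0 were lower. On chromosome 8, of 2221 such members, 0 were higher and 0 were lower.

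Increases also fell in windows with few genes. In chr6:141000001-142000000, 4 of 23 tested regions were higher, of which 1 lies in Pde3a, a phosphodiesterase gene, with 259 and 160 normalized reads in C2 and 105 and 92.5 in OSKM (log2 fold change 1.04, limma adjusted p = 0.0431). That call was lost without OSKM replicate 1 (adjusted p = 0.119) and replicate 2 (adjusted p = 0.269). In chr17:13000001-14000000, 4 of 36 were higher, none within 2000 bp of a named gene. The widest of these, chr17:13589155-13591717, held 972 and 369 in C2 and 169 and 85.9 in OSKM (log2 fold change 2.31, limma adjusted p = 0.00558). C3 held 804 and 860 there, and 266 and 158 at Pde3a. Without OSKM replicate 2, 1 further region of each window lost its call (adjusted p = 0.20 and 0.168).

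The other named increases stood at or near the lowest value in at least 1 OSKM library. The region at Frs3, an adaptor of fibroblast growth factor receptors, held 80.2 and 48.8 normalized reads in C2, at least 25.2-fold above OSKM, within strong H3K27ac of 729 and 650 in C2 and 1095 and 1091 in OSKM. C3 was at its lowest value there. Cfap20dc held 42.4 and 41.8 in C2, at least 16.5-fold above OSKM (limma adjusted p = 0.0161). Eif4g3, which codes for a translation initiation scaffold, held 37.8 and 33.5 in C2 and 0.852 and 1.47 in OSKM (adjusted p = 0.0271). Cd36, a fatty acid transporter gene, held 120 and 86.4 in C2 and 0.852 and 19.1 in OSKM (adjusted p = 0.0197), but DESeq2 gave 0.364. Unlike at Frs3, C3 held 48.1 and 14.2 at Cfap20dc, 52.2 and 24.9 at Eif4g3, and 162 and 110 at Cd36. Its libraries held 27.5 and 1.18 at Rpl17-ps6. The pseudogene Rpl17-ps6 held 36.7 and 29.3 in C2, at least 12.9-fold above OSKM, and lost its call without OSKM replicate 2 (adjusted p = 0.0521).

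The largest decrease near a named gene was at Rn18s-rs5, a sequence related to the 18S ribosomal RNA gene. Its region, chr17:39842993-39845655, stood at the lowest value in C2, 1.15 and 1.39 normalized reads, and held 6406 and 4333 in OSKM. Taken as reads, these values put C2 at least 1284-fold lower against a floor of 3 reads per C2 library (log2 fold change -11.2, SE 0.26, limma adjusted p = 1.15e-10). The C3 libraries were at their lowest value too. Ribosomal RNA genes are present in many near-identical copies, so the place of these reads is uncertain. The OSKM peaks there had a fold enrichment over the input's local background, the authors' value, of 1.66 and 1.302, against a median over all peaks of 4.41 and 4.48 in those libraries. Whether reads of the input were subtracted is not given in the sources used here, so the lowest value in C2 may not mean an absence of reads, and the C2 and OSKM peaks were called against the same pair of inputs, per the file headers.

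Several of the other named decreases lay in stretches of strong H3K27ac. Ppp2r2d, a regulatory subunit gene of protein phosphatase 2A, stood at 1.15 and 1.39 normalized reads in C2 and 216 and 196 in OSKM, at least 49.2-fold lower in C2 (limma adjusted p = 3.73e-05). H3K27ac there was 1623 and 1300 in C2 and 1611 and 1623 in OSKM. Fitm2, which codes for a lipid droplet protein, stood at the same lowest values in C2 and at 189 and 167 in OSKM, at least 42.6-fold lower in C2 (adjusted p = 8.06e-05), with H3K27ac of 889 and 721 in C2 and 1221 and 1190 in OSKM. Both stood at the lowest value in C3. Of the 26 lower regions with C2 at its lowest value, 13 overlap an H3K27ac region, tested or not. Of all 40 tested regions with C2 at its lowest value, called or not, 18 do, which is a similar share. Tefm, a mitochondrial transcription factor gene, and Pnkd stood at the lowest value in C2 too, with 62.2 and 46.3 in OSKM at Tefm and 54.5 and 47.0 in OSKM at Pnkd. Both calls were lost without OSKM replicate 1 (adjusted p = 0.385 and 0.376) and replicate 2 (0.248 and 0.319).

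The region of Cmss1 and Filip1l stood at the lowest value in C2 and at 182 and 117 in OSKM, at least 35.7-fold lower in C2 (limma adjusted p = 0.000219). C3 was at its lowest value too. As at Rn18s-rs5, the OSKM peaks there had a low fold enrichment, 1.68 and 1.41, against medians of 4.41 and 4.48 over all peaks. The same caution about the lowest value in C2 applies. Sntg1, which codes for a syntrophin scaffold protein, had 4 of the 62 tested regions of chr1:8000001-9000000 lower. The strongest fold change among them, at chr1:8956571-8958705, came from 1.15 and 8.36 normalized reads in C2 and 211 and 161 in OSKM (log2 fold change -5.37, limma adjusted p = 0.000724), and C3 was at its lowest value. Of the others, 2 lost the call without OSKM replicate 1 (adjusted p = 0.194 and 0.300) or replicate 2 (0.552 and 0.0961). H4c9, a replication-dependent histone gene, stood at the lowest value in C2 and at 43.5 and 83.0 in OSKM (adjusted p = 0.00584). The immunoglobulin kappa locus Igk held 52.8 and 48.5 in OSKM, and Zkscan2, a zinc-finger gene, 37.5 and 56.5, both with C2 at its lowest value. Without OSKM replicate 1 these calls were lost at H4c9 (adjusted p = 0.118), Igk (0.361) and Zkscan2 (0.286), as they were without OSKM replicate 2 (0.449, 0.335 and 0.524). The window chr7:14000001-15000000, which holds the sulfotransferase gene Sult2a3, had 5 of 58 tested regions lower, with smaller folds. The strongest change there, at chr7:14129021-14133230, came from 180 and 181 in C2 and 472 and 422 in OSKM (log2 fold change -1.30, limma adjusted p = 0.00178), and it was called in each fit that left out 1 library. The other 4 lost the call without OSKM replicate 1 (adjusted p from 0.0592 to 0.340) or replicate 2 (0.126 to 0.474).

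**Figure D4:**
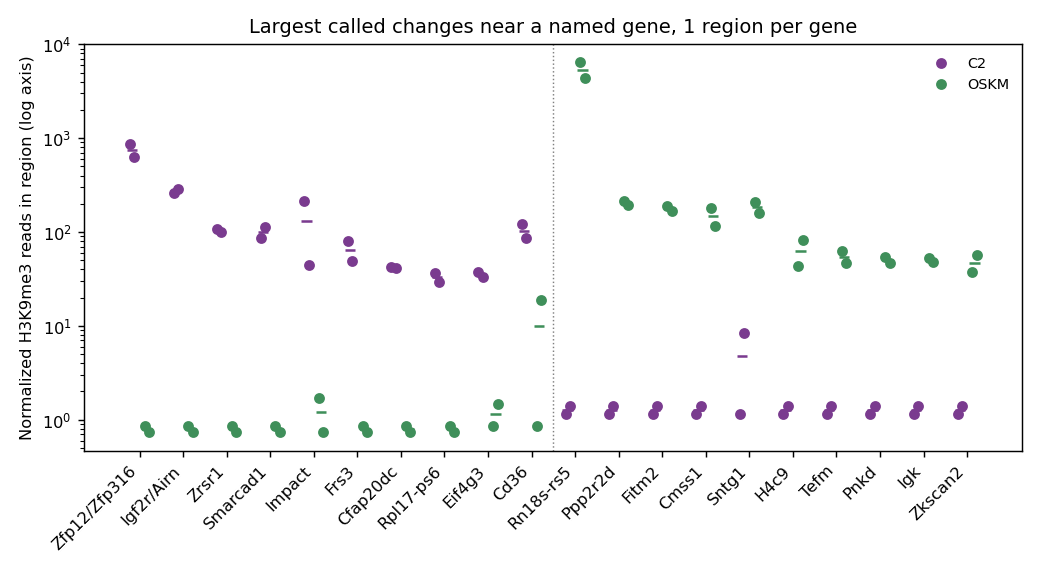
Normalized H3K9me3 reads (log axis) in the 10 largest called increases (left of the dotted line) and the 10 largest called decreases (right) near a named gene, 1 region per gene with libraries that do not overlap, on chromosomes 1 to 19 other than 8. Points are the libraries of C2 (left) and OSKM (right) and bars their means. In most of these regions 1 line stands at its lowest value, between 0.734 and 1.39, while the other holds from 29.3 to 6406 reads.

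The very strongest regions made up a large share of all reads. The single strongest region, chr2:98666241-98667336, held 8.25% and 6.30% of reads in the C2 libraries and 9.76% and 10.9% in the OSKM libraries. Its difference did not pass the test (log2 fold change -0.84, limma adjusted p = 0.0777). The 10 strongest regions together held 12.5% and 9.90% in C2 and 15.3% and 16.8% in OSKM. Another, on chromosome 14, chr14:19415682-19419704, fell by 1.04 on the log2 scale (limma adjusted p = 0.00802). Quantile normalization gives equal ranks equal values, and its difference of 0 here was fixed in advance. This region held the same rank in all 4 libraries. Without OSKM replicate 1 its adjusted p was 0.186, and without replicate 2 it was 0.429. Reads of such high-copy stretches cannot be placed with certainty.

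Zinc-finger genes of the Zfp family include many KRAB repressors clustered in H3K9me3 domains. On chromosomes other than 8, 137 members had a tested region. Of these, 6 were higher (4.38%) and 5 lower (3.65%) in C2, beside 0.569% and 4.18% over all genes. The higher genes Zfp12 and Zfp316 share 1 region. The median log2 fold change of the 137 members was -0.20, beside -0.24 over all genes. Zfp462, which codes for a chromatin-bound repressor of lineage genes, held 737 and 748 normalized reads in C2 at chr4:55007262-55011132 and 322 and 314 in OSKM (log2 fold change 1.22, SE 0.15, limma adjusted p = 0.00104). H3K27ac there was lower in C2, at 920 and 595 in C2 and 2242 and 2253 in OSKM (log2 fold change -1.60, limma adjusted p = 0.0149). The other higher members were Zfp12 and Zfp316, Zfp777 (3.59, adjusted p = 0.0419), Zfp110 (1.11, adjusted p = 0.0432) and Zfp180 (0.77, adjusted p = 0.0198). Zfp777 lost its call without C2 replicate 1 (adjusted p = 0.145) and without OSKM replicate 2 (adjusted p = 0.0780). Zfp110 and Zfp180 lost theirs without OSKM replicate 1 (adjusted p = 0.145 and 0.151) and replicate 2 (0.385 and 0.342). The lower members, Zfp790, Zfp607b, Zfp706 and the shared region of Zfp553 and Zfp771, had log2 fold changes from -1.03 to -0.73, and all lost their calls without OSKM replicate 1 (adjusted p from 0.101 to 0.487) or replicate 2 (0.0784 to 0.367).

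Among 5 pluripotency genes with a tested region, 2 were lower in C2, beside 4.18% lower and 0.569% higher over all genes with a tested region. The region at Pou5f1, the gene of Oct4, chr17:35505998-35506575, held 331 and 286 normalized reads in C2 and 523 and 457 in OSKM (log2 fold change -0.67, limma adjusted p = 0.0478), a call lost without OSKM replicate 1 (adjusted p = 0.548) and replicate 2 (adjusted p = 0.295). OSKM cells were transduced with Oct4, and reads from a transgene cannot be told apart from those of the gene. H3K27ac there was also lower in C2, at 2343 and 1436 in C2 and 4039 and 4024 in OSKM (limma adjusted p = 0.0450). Rif1, a replication-timing factor gene, held 355 and 605 in C2 and 868 and 986 in OSKM (log2 fold change -0.995, limma adjusted p = 0.0219), a call lost without OSKM replicate 2 (adjusted p = 0.123). Of 11 genes of the H3K9 methylation machinery, Smarcad1 was higher and Tasor, a HUSH complex gene, was lower, at 1.15 and 1.39 in C2 and 32.4 and 34.5 in OSKM (adjusted p = 0.0325). Tasor lost its call without OSKM replicate 1 (adjusted p = 0.530) and replicate 2 (adjusted p = 0.596).

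Other lists held few calls, beside 0.569% higher and 4.18% lower over all genes with a tested region. Of 8 fibroblast and mesenchymal genes, Col5a2, a collagen gene, was higher, at 127 and 120 normalized reads in C2 and 46.9 and 56.5 in OSKM (log2 fold change 1.25, limma adjusted p = 0.0270). It lost the call without OSKM replicate 1 (adjusted p = 0.253) and replicate 2 (adjusted p = 0.107). Of 14 germline genes, Tex14, which is needed for the bridges between germ cells, was lower (-1.03, adjusted p = 0.0199), and lost the call without OSKM replicate 2 (adjusted p = 0.0845). Of 15 killer-cell lectin receptor genes, Klra17 was higher (0.90, adjusted p = 0.0394). Single members were lower among 128 olfactory receptor genes (Olfr212, -0.80), 57 cytochrome P450 genes (the pseudogene Cyp2d67-ps, -0.77), 10 skin barrier cluster genes (Skint4, -0.82) and 4 histone genes (H4c9). None of 77 vomeronasal receptor genes, 32 clustered protocadherin genes in 4 regions, 15 glucuronosyltransferase and urinary protein genes, 9 serpin genes, 7 genes of the 2-cell-like state, 5 defensin genes outside chromosome 8, 4 keratin-associated protein genes, 4 Hox genes, 4 mesoderm, 3 endoderm, 3 trophoblast, 3 endothelial and blood and 2 neuroectoderm genes was called with limma. The calls of Klra17, Olfr212, Cyp2d67-ps and Skint4 were lost without OSKM replicate 1 (adjusted p = 0.333, 0.124, 0.145 and 0.0944) and without OSKM replicate 2 (0.238, 0.244, 0.194 and 0.514).

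On chromosome 8, H3K9me3 was lower in C2 along the whole length. Of 2481 tested regions, 702 fell (28.3%) and 1 rose (0.0403%), with a median log2 fold change of -0.998 and 94.6% of regions below 0. Both C2 libraries lay below both OSKM libraries in 79.6% of regions and above both in 1.61%. Chromosome 8 held 3.61% and 3.86% of reads in regions in C2 and 6.14% and 5.99% in OSKM, a difference of -2.33 percentage points between the means of 3.73% ± 0.18 in C2 and 6.07% ± 0.10 in OSKM (SD, n = 2 each). A two-sided exact permutation test gave p = 0.333, the smallest that 2 against 2 libraries can give. In 3 equal stretches of the chromosome, in order, the medians were -0.97, -0.96 and -1.09. The other autosomes had medians between -0.31 (chromosome 12) and -0.08 (chromosomes 1, 2 and 3). H3K27ac moved with it: its share on chromosome 8 was 4.15% and 3.46% in C2 and 7.61% and 7.48% in OSKM, and its median log2 fold change there was -1.40. Against C3, the median of C2 on chromosome 8 was -0.15, beside -0.06 on the other autosomes. The number of copies of chromosome 8 in each line was not measured, and its part in these values was not tested.

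**Figure D5:**
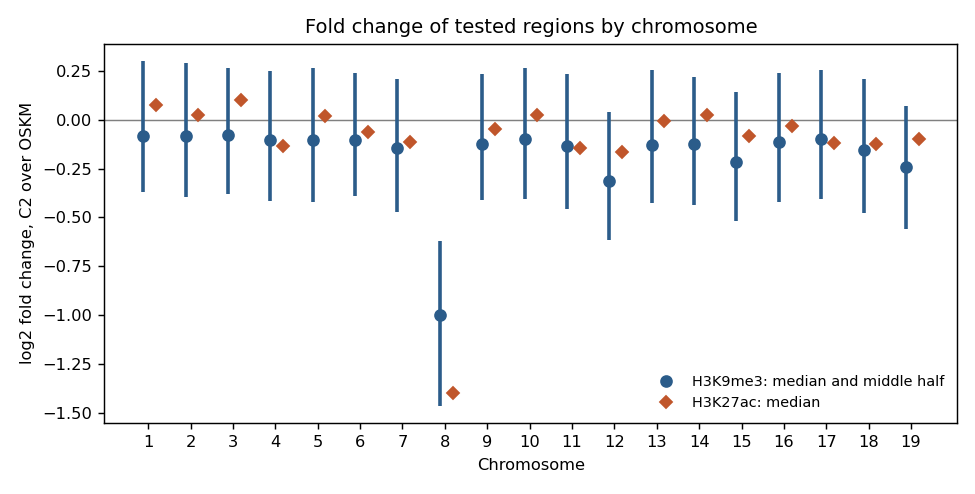
Log2 fold change of C2 over OSKM by autosome. Circles with bars give the median and quartiles of tested H3K9me3 regions, and diamonds the median of tested H3K27ac regions. Chromosome 8 has medians of -0.998 and -1.40, and the H3K9me3 medians of all other autosomes lie between -0.31 and -0.08.

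Within chromosome 8, the region that rose lies at Sipa1l2, which codes for a regulator of Rap GTPases. It held 127 and 116 normalized reads in C2 and 42.6 and 55.8 in OSKM (log2 fold change 1.297, limma adjusted p = 0.0268), a call lost without OSKM replicate 1 (adjusted p = 0.266) and replicate 2 (adjusted p = 0.0703). Mtus1, Zfhx3 and Mast1 were chosen for the size of their decrease. Mtus1, a microtubule-associated tumour suppressor gene, and Zfhx3, a homeobox factor gene, stood at the lowest value in C2. They held 84.4 and 54.3 (Mtus1) and 58.8 and 63.9 (Zfhx3) in OSKM, at least 16.6-fold and 14.7-fold lower in C2, and both lost the call without OSKM replicate 1 (adjusted p = 0.304 and 0.224) and replicate 2 (0.118 and 0.278). Mast1, a microtubule-associated kinase gene, split the C2 libraries, at 1.15 and 58.5 in C2 and 376 and 266 in OSKM (log2 fold change -4.81, limma adjusted p = 0.0199), and DESeq2 gave 0.642. Of 14 Zfp genes on the chromosome 6 were lower, among them Zfp821, at 96.3 and 127 in C2 and 439 and 391 in OSKM (log2 fold change -1.90, limma adjusted p = 0.000427). Zfp821, Zfp882 and Zfp617 were called in each fit that left out 1 library, whereas Zfp961, Zfp827 and Zfp469 were lost without OSKM replicate 2 (adjusted p = 0.0521, 0.405 and 0.314), and Zfp961 and Zfp827 also without OSKM replicate 1 (0.119 and 0.356). Of 11 defensin genes, which code for antimicrobial peptides, 3 were lower (Defa-ps8, Defb35 and Defb14), and all 3 lost the call without OSKM replicate 1 (adjusted p = 0.440, 0.0613 and 0.281) or replicate 2 (0.350, 0.0793 and 0.248). Over all 519 genes of the chromosome with a tested region, 43.5% were lower and 0.385% were higher.

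H3K27ac was compared at the same places. Over all chromosomes 6.7% of 84753 tested H3K27ac regions were higher and 7.16% were lower in C2. Of the 204 regions with more H3K9me3 on chromosomes 1 to 19 other than 8, 66 overlapped a tested H3K27ac region, of which 15 were higher and 13 lower, with a median log2 fold change of 0.22. Of the 685 with less H3K9me3, 208 did, of which 4 were higher and 74 lower, with a median of -0.85. Over all 4363 tested regions with such an overlap, 5.39% were higher and 16.2% were lower, with a median of -0.39. The lower share of H3K27ac was thus 35.6% among regions with less H3K9me3, 19.7% among those with more and 16.2% over all, and the differences between these shares were not tested. Among the named regions, H3K9me3 was called higher and H3K27ac lower at Zrsr1, Impact and Zfp462. At others the marks moved in the same direction. At chr6:141774410-141774917 and chr6:141776229-141776726, both higher in C2, H3K27ac was higher too (log2 fold change 1.39, limma adjusted p = 0.0237). Both marks were lower at Pou5f1 and at Mast1 on chromosome 8 (H3K27ac -0.95, limma adjusted p = 0.0293). They were also lower at chr7:14117128-14121867 near Sult2a3 (H3K27ac -2.87, limma adjusted p = 0.00931).

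A peak was called in both C2 libraries in 45.5% of the 60587 regions and in both OSKM libraries in 79.4%. Of the 204 higher regions, 93.6% and 78.9% overlapped a peak of the C2 libraries and 40.7% and 37.7% a peak of the OSKM libraries. Of the 685 lower regions, 73.0% and 74.7% overlapped a peak of the C2 libraries and 100% and 99.6% a peak of the OSKM libraries. These shares follow in part from the same reads as the test. HA peaks, which mark the tagged artificial factors at day 20 of reprogramming, overlapped 0.980% of the higher regions in each C2 library, against 0.980% and 0.490% in the empty-vector control. They overlapped 7.88% and 11.7% of the lower regions in the C2 libraries, against 5.40% and 7.59% in the control. Over all tested regions the shares were 4.03% and 8.82% in the C2 libraries and 3.31% and 5.89% in the control. Of the named decreases, the regions at Rn18s-rs5 and at Cmss1 and Filip1l overlapped an HA peak in both C2 libraries and in neither control library. These HA peaks had a fold enrichment of 3.51 and 3.36 at Rn18s-rs5 and of 5.91 and 4.78 at Cmss1 and Filip1l. The medians over all HA peaks of the C2 libraries were 5.92 and 5.93. The place of reads from ribosomal RNA genes is uncertain here too, so binding at Rn18s-rs5 does not follow. The HA libraries of C2 kept 2506011 and 3896935 tags after filtering, and the controls 1707437 and 1629753. Redundant tags made up 0.92 of the total in both C2 libraries, and 0.93 and 0.94 in the controls. The differences between the overlap shares were not tested.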

How the data were processed

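Fixed cells (1.5% formaldehyde, per the labels) were used for ChIP-seq. The submitters' processing notes name DiffBind (1.16.2), Bowtie2 (2.2.5), SAMtools (1.3), CASAVA (1.8.2) and mm10. In the region tables the authors deposited the signal of each library as normalized reads. The same tables by the authors hold a p-value with an FDR and a log2 fold change of their own comparison. Peaks were called per library with MACS 2.1.0.20150731 at a q-value of 0.01, per the file headers, and the deposited peak files give a -log10 q-value and a fold enrichment as a ratio.

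Dividing by the lowest value of a column gave whole reads for 100% of values (tolerance 1e-06). limma 3.58.1 (trend, R 4.3.3) was fitted to log2(normalized reads + 1) in regions with a mean of at least 10 over the 4 libraries, on all chromosomes, with Benjamini-Hochberg adjustment and calls at 0.05. Fold changes on this scale understate the change of weak regions. edgeR 4.0.16 and DESeq2 1.42.0 on the recovered reads were alternatives, as were other filters, pseudocounts and scalings, a replicate block and leaving out each library. On simulated data with 200 changed regions of 47510, limma recovered 65% of 4-fold and 23% of 2-fold changes, and 7.37% of calls were false. A gene was given its region of highest mean within 2000 bp of the gene extent in RefSeq (GRCm38.p6, the release of mm10). Strand is not marked, so genes that share a region cannot be told apart.

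Named regions are the 10 largest called changes in each direction with non-overlapping libraries near a named gene, 1 region per gene (3 on chromosome 8), the called members of each list (at most 4), and the windows of 1 Mb with the most calls (3 in each direction); members of lists beyond 4 and imprinted promoters without a call were named after their values were seen. The members and lists were chosen with earlier results of these data known. Floors cover counting error only and take the lowest value as 1 read, with no input reads subtracted. Python 3.11.15 with NumPy 2.4.6, pandas 2.3.3 and matplotlib 3.10.9 was used for the rest.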

Additional observations from a re-analysis of the deposited data

How the results depend on the processing

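On chromosomes 1 to 19 other than 8, the counts of higher and lower regions were 204 and 685. The higher count moved by more than 1.5 times to 328 (pseudocount 8), 322 (edgeR), 1125 (the authors' deposited table), 123 (chromosomes 8, X and Y left out of the fit) and 528 (replicate block), and the lower count to 160 (no filter), 84 (quantile normalization), 289 (edgeR), 255 (DESeq2), 421 (chromosomes 8, X and Y left out) and 1579 (replicate block). Leaving out 1 library gave 128 to 1374 higher and 73 to 5232 lower. On chromosome 8 the 1 higher region became 2 (no filter, mean of at least 30 and edgeR), 3 (pseudocount 8 and DESeq2), 13 (the authors' deposited table) and 4 (replicate block), and the 702 lower became 377 (no filter), 264 (quantile normalization), 444 (DESeq2) and 1085 (replicate block). Leaving out 1 library gave 0 to 6 higher and 225 to 1364 lower there. Members of lists called lower moved to 11 (no filter), 50 (mean of at least 30), 53 (pseudocount 8), 7 (quantile normalization), 13 (edgeR), 16 (DESeq2), 13 (chromosomes 8, X and Y left out), 69 (replicate block) and 61 (gene window of 10000 bp), and to 4 to 139 without 1 library. Members called higher ranged from 8 to 37 without 1 library. The difference in median log2 fold change between chromosome 8 and the other autosomes was -0.82 without the filter, -0.84 with a mean of at least 30, -0.76 with pseudocount 8 and -0.84 in the authors' deposited table. The share of regions with a peak in both C2 libraries was 17% where a peak had to cover at least 50% of the region and 36.1% at a -log10 q of at least 5, against 64.0% and 68.8% in both OSKM libraries. The cause of these differences was not tested.

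The sign turned under some settings, also for chr9:3000004-3005348 (log2 fold change -0.87, adjusted p = 0.0161) and chr4:145445573-145463696 (-0.73, adjusted p = 0.00826), both called lower by limma. Under quantile normalization the log2 fold change was 0.191 at Plagl1 and 0.0213 at Nnat. Leaving out 1 library gave -0.598 to 0.0481 at Peg3, -0.270 to 2.02 at Ndn and -1.41 to 0.195 at Kcnq1ot1. Of the strongest regions, chr9:3000004-3005348 had 0.276 under quantile normalization, chr11:3191031-3195033 had 0.120 there, 0.00568 with edgeR and 0.0185 with DESeq2, and under quantile normalization chr2:98664848-98665281 had 0.264 and chr4:145445573-145463696 had 0.0675. Of the 93 named regions called, 34 were called in every fit without 1 library, and 93 under the replicate block. With chromosomes 8, X and Y left out of the fit, 61 of the 93 were called and 14 had no value. Calls lost there included those of Eif4g3, Rpl17-ps6, Nap1l5 and Herc3, Zfp777, Zfp110, Zfp790, Klra17, Pou5f1, Tasor and Pde3a. Some regions at Kcnq1 and Sntg1 were lost there too. Same-numbered libraries of the lines did not deviate together across regions (r = 0.00298). This cannot show whether they shared a culture or day, which the labels do not say. Without 1 OSKM library, the other is assumed to vary like C2. Depth limits weak regions most.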
